A study of Mus musculus with 6 samples.

Results

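RNA levels of 33 genes of endoplasmic reticulum (ER) protein folding and the unfolded protein response were compared between cultured mouse regulatory T (Treg) cells grown with and without sorafenib (Sora). The genes were taken by symbol from a list of ER chaperones, stress sensors, ER-associated degradation factors and translocation components, and all 33 were found among the 22939 genes measured. Sora is a multikinase inhibitor given for liver cancer, and Treg cells are CD4+ T cells that restrain immune responses and depend on the transcription factor Foxp3. There were 3 libraries of untreated cells, the ctrl-Treg libraries (control), and 3 of Sora-treated cells, the Sora-Treg libraries (sorafenib). In both groups the starting cells were naive CD4+ T cells from C57BL/6J-background mice with a Foxp3-GFP knock-in, a reporter read from the endogenous Foxp3 locus. They were driven towards the Treg fate with plate-bound anti-CD3, anti-CD28, TGF-β1 and antibodies that block IFN-γ and IL-4, and the GFP-positive cells were sorted, so both groups were selected for an active Foxp3 locus. The dose of Sora used for sequencing, the age of the mice and the number of animals behind each library are not given in the sources used here. P-values therefore measure only the spread between these libraries, which may be technical.

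Proteins that enter the ER are folded there by chaperones, sugar-binding lectins and enzymes that form disulfide bonds, and those that fail to fold are pulled back to the cytosol and degraded. When unfolded proteins accumulate, sensors in the ER membrane (Ire1, encoded by Ern1, Atf6 and Perk) start the unfolded protein response, in which the transcription factors Xbp1, Atf6 and Atf4 raise folding and degradation capacity. Secretory cells such as plasma cells run this program at a high level, and T cells use it when activation raises the synthesis of surface and secreted proteins.

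The DNA letters best known for carrying this response were present in front of many of the genes. The ER stress response element (ERSE), bound by Atf6 and Xbp1 together with NF-Y, was searched as CCAAT followed by 9 bases of any kind and CCACG, on both strands, in RefSeq windows (GRCm38.p6) from 250 bases before to 50 after each gene start. A shorter form, ERSE-II, was searched as ATTGG, 1 base of any kind and CCACG. Of the 27 genes with such a window, 9 held an ERSE (33.3%), against 37 of all 27025 genes with a window (0.137%) and 18 of the 10701 of them that were tested for expression (0.168%). The genes and both elements were chosen for their part in this response, so such shares are a description and no independent finding. The sequences below are those of 6 genes called as different between the groups below, read 5′ to 3′ along the gene's strand, with the match in capitals. A match that starts with CGTGG lies on the opposite strand.
Hspa5: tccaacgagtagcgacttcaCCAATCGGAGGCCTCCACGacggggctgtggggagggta
Creld2: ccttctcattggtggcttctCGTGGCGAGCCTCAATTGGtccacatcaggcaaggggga
Dnajc3: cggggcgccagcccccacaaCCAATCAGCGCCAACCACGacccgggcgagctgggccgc
Pdia6: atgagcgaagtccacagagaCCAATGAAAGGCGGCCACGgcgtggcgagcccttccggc
Canx: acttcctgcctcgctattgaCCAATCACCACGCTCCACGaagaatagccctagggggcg
Calr: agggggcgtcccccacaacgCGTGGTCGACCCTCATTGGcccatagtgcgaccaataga
They lie at chr2:34772005-34772063 (plus strand) for Hspa5, chr15:88819500-88819558 (plus) for Creld2, chr14:118937807-118937865 (plus) for Dnajc3, chr12:17266471-17266529 (plus) for Pdia6, chr11:50325780-50325838 (minus) for Canx and chr8:84847055-84847113 (minus) for Calr. Each of these 6 stretches is upstream of the annotated start.

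Herpud1 and Dnajb11 held the ERSE-II, which was found in 2 of the 27 genes (7.41%) and in 12 of all genes with a window (0.0444%). Herpud1, whose product helps assemble the ER-associated degradation complex, also held the only match among these genes to the Atf4 element (TGATGCAA, found on the opposite strand), which 1.03% of all genes with a window carried. Both stretches of Herpud1 are shown because it was the gene of the set with the lowest fold change.
Herpud1 ERSE-II: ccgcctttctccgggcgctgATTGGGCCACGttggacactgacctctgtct
Herpud1 Atf4 element: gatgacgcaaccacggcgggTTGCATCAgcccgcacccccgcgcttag
They lie at chr8:94386357-94386407 and chr8:94386297-94386344 on the plus strand. In Dnajb11 the ERSE-II match, ATTGGCCCACG, lay after the annotated start at chr16:22857852-22857862. The other ERSE holders were Hsp90b1, with 2 matches, Syvn1 and Derl3. The element called UPRE, searched as TGACGTGG, matched in 0 of the 27 genes and in 0.714% of all genes with a window, which says only that these letters are not in these windows. The building blocks were common: CCAAT alone was in 77.8% of the genes and in 41.1% of all genes with a window, and CCACG alone was in 85.2% and 35.5%. Both are contained in every ERSE match, and the UPRE contains CCACG on its opposite strand.

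**Figure D1:**
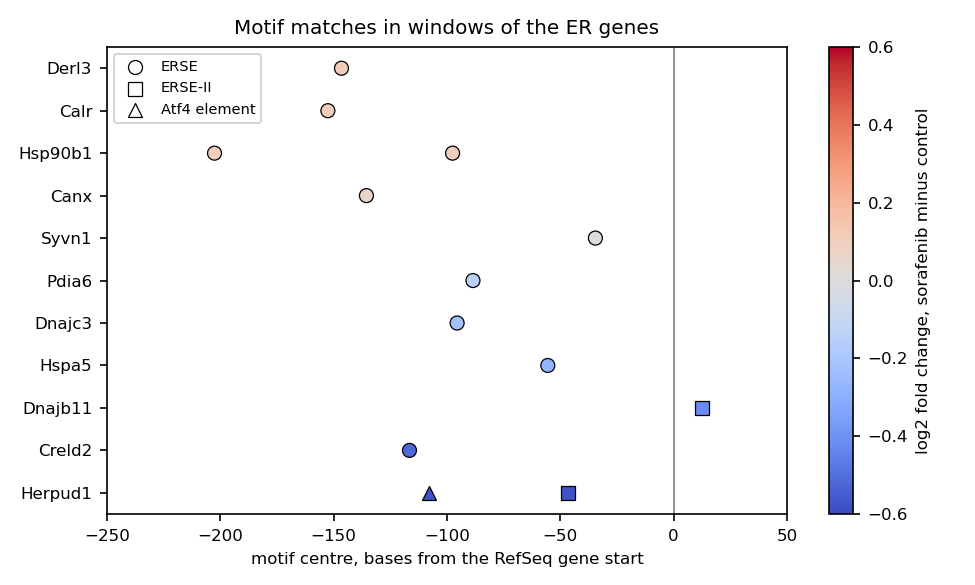
Positions of motif matches from the annotated gene start (horizontal axis, bases; 0 is the start and negative values lie upstream) for the 11 genes with an ERSE (circles) or ERSE-II (squares) and for the Atf4 element of Herpud1 (triangle). Colour gives the log2 fold change of the gene, sorafenib minus control; the median centre of the ERSE and ERSE-II matches was -96.5 bases, and matched genes ranged from -0.58 (Herpud1) to 0.11 (Derl3, not called; Calr and Hsp90b1, at 0.10, turn slightly negative when scaled by library totals).

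Libraries held between 30727686 and 37717324 counts, at which 3 counts correspond to 0.0795 to 0.0976 CPM (counts scaled to a common library size). Levels below are CPM scaled by TMM, which sets the bulk of genes equal between libraries, and differences are log2 fold changes, Sora-Treg minus ctrl-Treg, ± SE, from the quasi-likelihood test of edgeR with Benjamini-Hochberg adjusted p over 13463 tested genes. Called means an adjusted p under 0.05, and a DEG is a called gene that also differed by more than 2-fold. Foxp3 itself stood at 259 CPM in ctrl-Treg and 272 CPM in Sora-Treg libraries (0.07 ± 0.03, adjusted p = 0.0405). Its groups overlapped, with control library 1 at 268.8 and sorafenib library 2 at 268.4 CPM. Scaled by library totals and gene length (FPKM), its mean went the other way, from 68.5 to 66.6. Of 10 Treg and T cell markers 9 were higher, with summed levels of 4422 to 4461 CPM in control and 7706 to 7818 CPM in sorafenib libraries. Among these 9, Cd4 (0.06 ± 0.03) also turned in FPKM, from a mean of 203.6 to 196.1. The CD8 T cell markers Cd8a and Cd8b1 summed to 13.2 to 15.1 and 12.6 to 13.8 CPM. All 8 myeloid markers were tested and 5 were lower, each of them a DEG (log2 fold changes of -1.80 to -1.55). The summed levels were 196, 205 and 128 CPM in the control libraries and 120, 150 and 120 CPM in the sorafenib libraries, so that control libraries 1 and 2 stood above the other 4. A large part of each sum was Ctss, which was not called, at 103, 111 and 103 CPM in control and 97.6, 107 and 98.9 CPM in sorafenib libraries. The sums thus understate how far control libraries 1 and 2 stood above the others in the 5 lower markers. The groups overlapped in all 8 myeloid markers. Control library 3 was below every sorafenib library for Csf1r (0.783 CPM), Itgam (0.814 CPM) and Adgre1 (3.38 CPM). For Lyz2 and Cd14 it lay between sorafenib libraries. B and plasma cell markers, a lineage rich in ER, summed to 15.6 to 18.5 CPM in control and 10.3 to 12.1 CPM in sorafenib libraries, with 5 of 6 tested lower. Of these 10 markers the plasma cell gene Tnfrsf17 had 4, 1 and 0 counts in the control and 0 in all 3 sorafenib libraries, too few to compare. Jchain, likewise not tested, was at 0.108 and 0.109 CPM in the group means. The remaining untested markers, Mzb1 and Ms4a1, were lower in sorafenib libraries without overlap, at few counts. Mzb1 had 14, 10 and 10 counts in control and 2, 0 and 1 in sorafenib libraries. Ms4a1 had 3, 2 and 7 counts in control and 1, 0 and 0 in sorafenib libraries. In bulk RNA of this kind, fewer cells of a type and less RNA per cell cannot be told apart. The part of these other cells in the results was not tested beyond the values without control libraries 1 and 2, given below.

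The 33 genes moved in both directions, by less than 2-fold each. In the Sora-Treg libraries 12 were higher and 14 were lower, and 7 were not called, which is 36.4% higher and 42.4% lower. Over all genes tested, 59.6% were called, 29.7% higher and 29.9% lower, so being called was frequent in this comparison. None of the 33 was a DEG by edgeR, DESeq2 or limma, although 26 had an unadjusted p under 0.05 in edgeR, and 11.3% of all genes were DEGs. The groups did not overlap in 25 of the 33 genes, beside 63.7% of all genes. The median log2 fold change was -0.01 in the 33 and -0.00 in all genes. Scaling by library totals in place of TMM shifted the median of all genes to -0.12 and the split of the 33 to 5 higher and 19 lower (15.2% and 57.6%, beside 21.3% and 41.7% of all genes). Under all 17 alternatives run, 18 genes held both direction and call, 5 higher (P4hb, Edem2, Dnajb9, Xbp1 and Ssr1) and 13 lower (Herpud1, Hyou1, Creld2, Sdf2l1, Dnajb11, Hspa5, Dnajc3, Sel1l, Pdia6, Pdia4, Sec61a1, Sec11c and Manf). With control libraries 1 and 2 left out, an alternative chosen after the data had been seen, 7 were higher and 10 were lower, and of those 18 genes Manf, Pdia4 and Sec11c were no longer called.

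**Figure D2:**
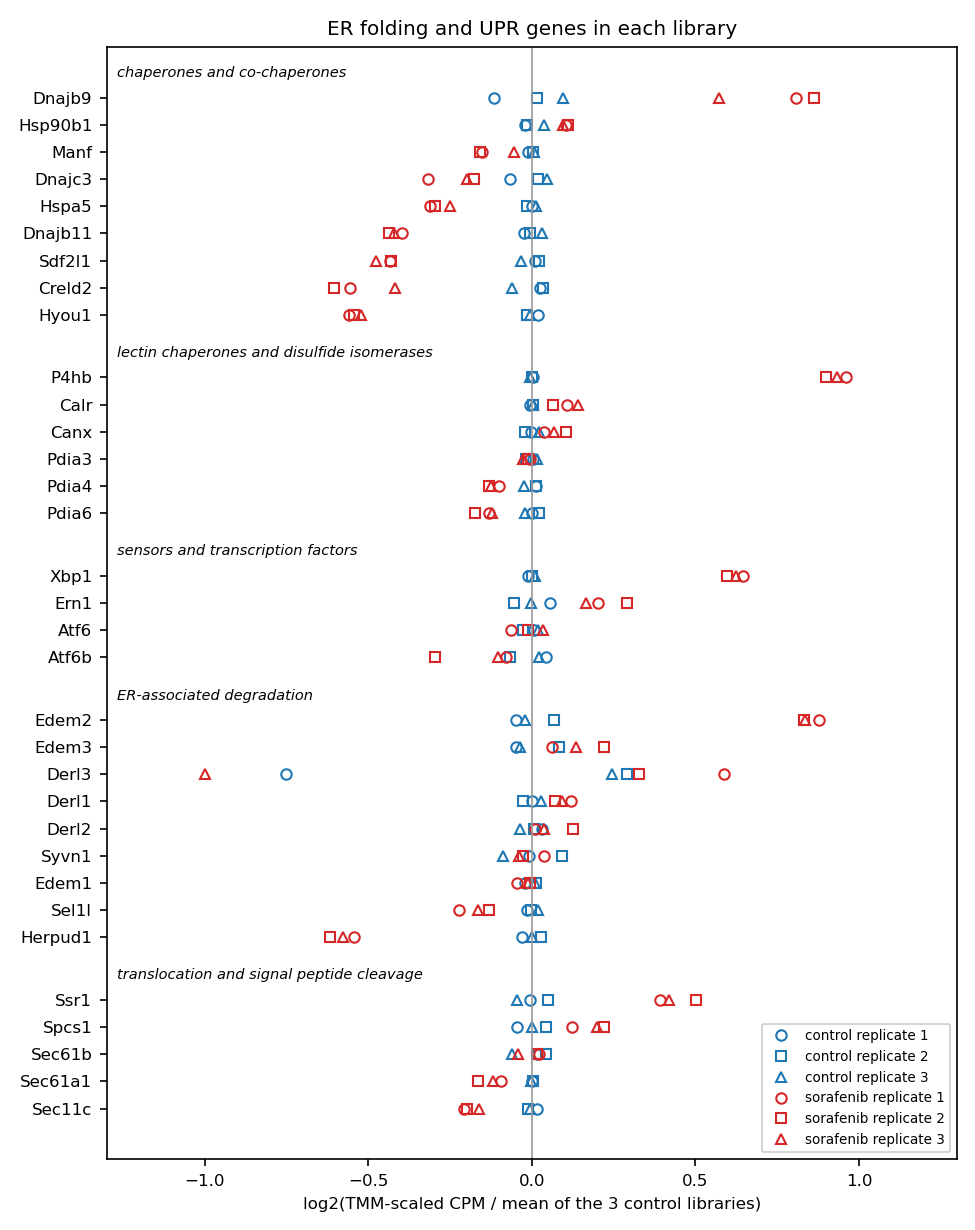
Level of each of the 33 genes in each library as the log2 ratio of its TMM-scaled CPM to the mean of the 3 control libraries (horizontal axis), by role. Blue symbols are control and red sorafenib libraries, with the shape giving the replicate. The sorafenib symbols of Hyou1, Creld2 and Herpud1 lie left of all control symbols and those of P4hb, Edem2, Dnajb9 and Xbp1 lie right of them, while Derl3, the gene with the fewest counts, spreads widely in both groups.

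The 9 luminal chaperones and co-chaperones were lower for the most part. Of them 7 fell and 2 rose, with a median log2 fold change of -0.29, beside 29.9% lower and 29.7% higher over all genes. In all 9 the groups did not overlap, which was also so in 63.7% of all genes. The same shares over all genes stand beside the counts of the other roles below. Hspa5 (BiP), the main Hsp70 of the ER and the partner that holds the stress sensors inactive, stood at 1108, 1096 and 1118 CPM in the ctrl-Treg libraries, against 893, 902.5 and 931 CPM in the Sora-Treg libraries. Each Sora-Treg library was below each ctrl-Treg library, a fall to 0.821 of the control level (-0.29 ± 0.02, adjusted p = 5.87e-10). Hyou1, a large Hsp70 relative that acts as a nucleotide exchange factor for BiP, was at 259, 253 and 255 CPM and at 174, 175 and 178 CPM. It had the lowest fold change of the chaperones and a gap between the groups far wider than the spread within them (-0.54 ± 0.03, adjusted p = 2.26e-13). Creld2, a secreted ER stress-responsive protein with a role in disulfide exchange, was at 45.8, 46.1 and 43.2 CPM without Sora and at 30.6, 29.6 and 33.7 CPM with it, again without overlap (-0.52 ± 0.06, adjusted p = 3.23e-08).

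Other BiP partners fell as well. Sdf2l1, which works with ER J-domain proteins, fell from 44.1 ± 0.885 to 32.4 ± 0.606 CPM (mean ± SD, n = 3 in each group here and below), and Dnajb11, the J-domain protein ERdj3, fell from 98.8 ± 1.91 to 73.9 ± 1.05 CPM. Dnajc3 (P58IPK), a J-domain protein linked to restraint of Perk, went from 94.5 ± 3.86 to 80.6 ± 4.13 CPM. Manf, a small secreted protein that binds BiP, went from 125 ± 0.806 to 115 ± 4.71 CPM, the smallest of the falls (-0.12 ± 0.04, adjusted p = 0.00667). The log2 fold changes of the other 3 were -0.45, -0.42 and -0.23, so the falls of the BiP group covered a range of sizes and not a single shift.

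The 2 chaperone genes that rose did so to different extents. Dnajb9 (ERdj4), a J-domain protein that brings BiP to Ire1 and is itself an Xbp1 target, was at 8.28, 9.07 and 9.58 CPM in ctrl-Treg and at 15.7, 16.3 and 13.3 CPM in Sora-Treg libraries. Every Sora-Treg library was above every ctrl-Treg library, at 1.69 times the control level (0.75 ± 0.10, adjusted p = 5.56e-07). Hsp90b1 (Grp94), the Hsp90 of the ER, with clients that include integrins and Toll-like receptors, was at 789, 791 and 820.3 CPM and at 859.6, 864 and 854 CPM. That rise was small (0.10 ± 0.02, adjusted p = 9.04e-04) and turned to -0.01 when libraries were scaled by their totals. Without control libraries 1 and 2 the value was 0.07 and no longer called.

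Among the 6 lectin chaperones and protein disulfide isomerases, 3 rose, 2 fell and 1 was not called, with a median of 0.03, and P4hb had a far greater fold change than the others. P4hb, the founding protein disulfide isomerase and also the beta subunit of collagen prolyl 4-hydroxylase, was at 547, 546 and 544 CPM in the ctrl-Treg libraries, against 1063, 1019 and 1042 CPM in the Sora-Treg libraries. The 3 values of each group lay close together and the groups were nearly 2-fold apart (1.91-fold, 0.93 ± 0.02, adjusted p = 4.78e-19), just under the DEG limit. The related enzymes Pdia6 and Pdia4 moved the other way. Pdia6 stood at 233, 237 and 229.6 CPM without Sora and at 213, 207 and 214 CPM with it (-0.14 ± 0.03, adjusted p = 2.59e-04). Pdia4 was at 198, 198 and 193 CPM and at 183, 179 and 179.8 CPM (-0.12 ± 0.03, adjusted p = 0.00159). Both falls were small but the groups did not overlap. Pdia3 (ERp57), which works on glycoproteins held by the lectins, was at 544 ± 5.85 and 538 ± 3.84 CPM with overlapping groups and was not called (adjusted p = 0.627), but was called lower with library totals (-0.13).

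The lectin chaperones Calr and Canx, which bind monoglucosylated glycoproteins in the calnexin cycle, showed small differences whose sign depended on the scaling. Calr was at 887, 893 and 893 CPM in ctrl-Treg and at 959, 931 and 983 CPM in Sora-Treg libraries (0.10 ± 0.02, adjusted p = 9.17e-04), and its value with library totals was -0.01. Canx went from 637 ± 9.77 to 669 ± 15.7 CPM (0.07 ± 0.03, adjusted p = 0.0239), and its value with library totals was -0.05. The Canx call was also lost with upper quartile scaling (0.03) and the filter of a count in any sample (0.05). It was lost too on leaving out control library 1 (0.07), control library 2 (0.06), sorafenib library 2 (0.05) or sorafenib library 3 (0.07). Without both control libraries 1 and 2 the Canx value was 0.05.

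Ratios of counts within a library do not depend on scaling, and were taken for a few pairs after the values had been seen. The P4hb to Pdia6 ratio was 2.35, 2.31 and 2.37 in the control libraries and 4.998, 4.93 and 4.86 in the sorafenib libraries. Between these disulfide isomerases the balance of counts thus more than doubled, from 2.34 ± 0.0323 to 4.93 ± 0.0677. The Hsp90b1 to Hspa5 ratio rose from 0.722 ± 0.0108 to 0.946 ± 0.0245, and the Calr to Canx ratio was 1.40 ± 0.0215 and 1.43 ± 0.0637. The two-sided exact permutation p was 0.1, the smallest that 3 against 3 libraries allow, for P4hb to Pdia6 and for Hsp90b1 to Hspa5. It was 0.4 for Calr to Canx. Since the pairs were chosen by their values, these p-values lend no support to a difference. Further pairs, such as Xbp1 to Hspa5, were also taken and are not described.

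**Figure D3:**
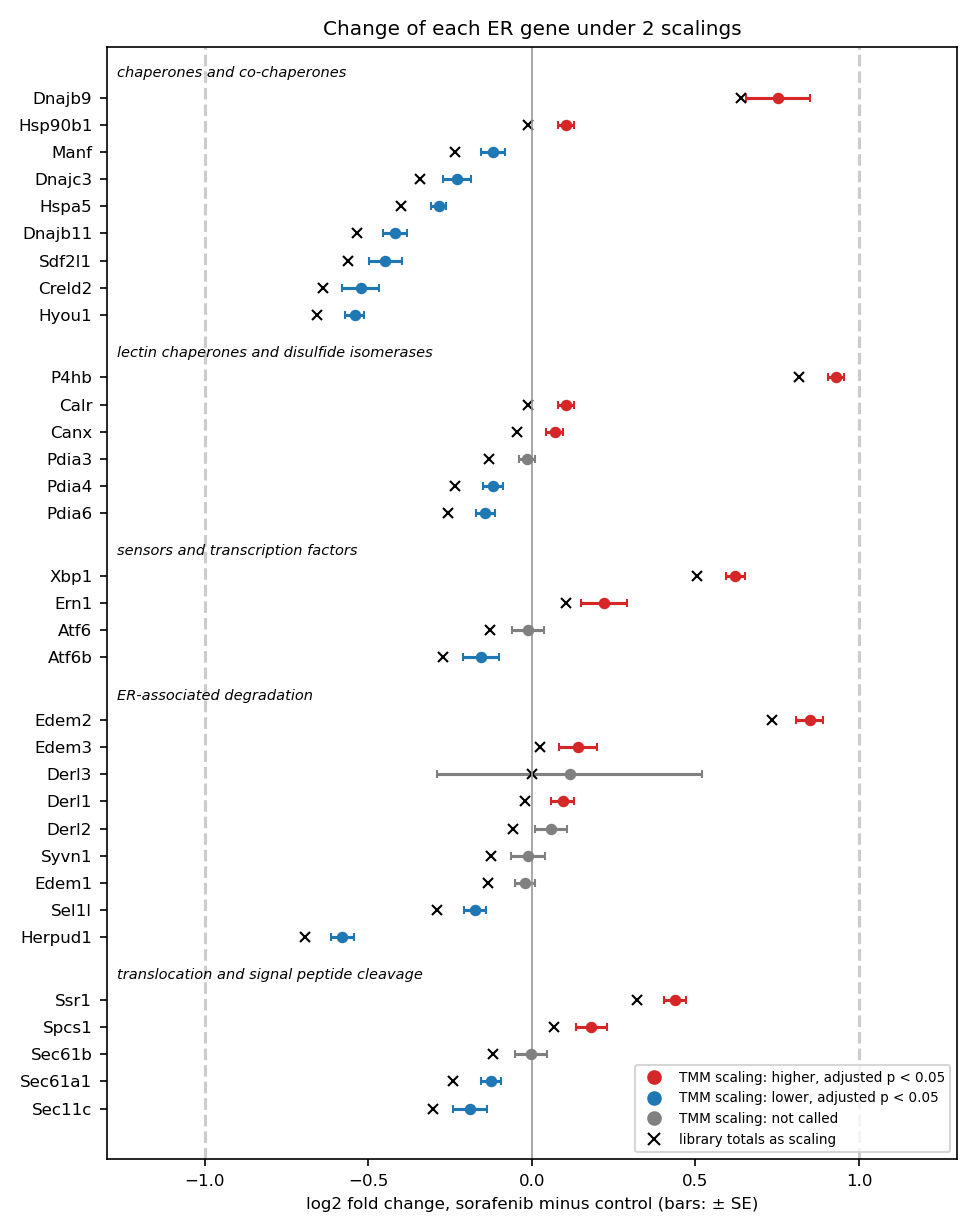
Log2 fold change of each gene, sorafenib minus control (horizontal axis), by role, with TMM scaling (points, bars ± SE; red higher and blue lower at adjusted p under 0.05, grey not called) and with library totals as scaling (crosses). No point passes the dashed lines at 1 and -1, and the crosses of Hsp90b1, Calr, Canx, Derl1 and Derl2 lie left of 0 while their points lie right of it.

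Of the 4 sensors and transcription factors, 2 rose, 1 fell and 1 was not called. Xbp1, the transcription factor whose mRNA Ire1 splices into its active form, was at 171, 173 and 174 CPM in the ctrl-Treg libraries, against 270.1, 261 and 266 CPM in the Sora-Treg libraries. All Sora-Treg libraries were higher, by 1.54-fold (0.62 ± 0.03, adjusted p = 1.82e-14). Counts per gene do not separate spliced from unspliced Xbp1, so the level of the active form was not measured. Ern1, which encodes Ire1 alpha, was at 20.1, 18.6 and 19.3 CPM without Sora and at 22.2, 23.6 and 21.7 CPM with it (0.22 ± 0.07, adjusted p = 0.00971). Its groups did not overlap, but the call was lost with library totals, at 0.10, and without control libraries 1 and 2, at 0.22.

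The Atf6 family showed little difference. Atf6, a sensor that is cut in the Golgi to release a transcription factor, was at 44.9, 43.9 and 45.2 CPM in ctrl-Treg and at 42.7, 44.3 and 45.8 CPM in Sora-Treg libraries. These values overlapped and were not called (-0.01 ± 0.05, adjusted p = 0.845), though Atf6 was called lower with library totals (-0.13). Atf6b, its close relative, was at 51.5, 47.7 and 50.7 CPM and at 47.3, 40.7 and 46.5 CPM, with sorafenib library 2 the lowest of all 6 (-0.16 ± 0.06, adjusted p = 0.0181). The Atf6b call was lost on leaving out control library 1 (-0.13), control library 3 (-0.15) or sorafenib library 2 (-0.09), and without control libraries 1 and 2 together (-0.18).

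The 9 genes of ER-associated degradation, the route by which misfolded proteins leave the ER for the proteasome, were divided: 3 rose, 2 fell and 4 were not called, with a median of 0.06. With library totals 1 was higher (Edem2) and 4 were lower, Edem1 (-0.14) and Syvn1 (-0.13) being added to the 2 that fell. These are 11.1% and 44.4%, beside 21.3% higher and 41.7% lower over all genes on that scaling. Herpud1, introduced above with its ERSE-II and Atf4 element, was at 122, 127 and 125 CPM in the ctrl-Treg libraries, against 85.7, 81.4 and 83.7 CPM in the Sora-Treg libraries. It fell to 0.669 of the control level with no overlap (-0.58 ± 0.04, adjusted p = 3.58e-12). Sel1l, the adaptor of the Hrd1 ubiquitin ligase, stood at 157, 158 and 161 CPM without Sora and at 136, 145 and 141 CPM with it (-0.17 ± 0.03, adjusted p = 1.07e-04). The ligase itself, Syvn1 (Hrd1), was at 45.4 ± 2.83 and 45.1 ± 1.3 CPM and was not called (adjusted p = 0.865).

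The Edem genes, whose products trim mannose from glycoproteins bound for degradation, did not move alike. Edem2, which starts that trimming, was at 50.9, 55.3 and 51.9 CPM in ctrl-Treg and at 96.9, 93.9 and 94.1 CPM in Sora-Treg libraries, a 1.80-fold rise (0.85 ± 0.04, adjusted p = 4.14e-14). Edem1 was at 189 ± 2.49 and 186 ± 2.69 CPM and was not called (adjusted p = 0.583). The Edem2 to Edem1 count ratio within libraries, likewise chosen after the values had been seen, went from 0.279 ± 0.00986 to 0.510 ± 0.0165. Edem3 was at 32.3, 35.4 and 32.6 CPM and at 34.8, 38.9 and 36.6 CPM, and these groups overlapped (0.14 ± 0.06, adjusted p = 0.0414). Its call was lost with DESeq2, upper quartile scaling (0.10), the filter of a count in any sample (0.13), library totals (0.02), without control libraries 1 and 2 together (0.18), and on leaving out control library 1 (0.12), control library 3 (0.12), sorafenib library 2 (0.10) or sorafenib library 3 (0.15).

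The derlins, membrane proteins that help extract degradation substrates, differed little. Derl1 went from 110 ± 2.14 to 118 ± 2.02 CPM (0.09 ± 0.03, adjusted p = 0.0236), with -0.02 under library totals. That call was lost with upper quartile scaling (0.06) and the filter of a count in any sample (0.08). It was lost too without control library 1 (0.10), control library 2 (0.08), sorafenib library 1 (0.08) or sorafenib library 3 (0.10). Without control libraries 1 and 2 together the Derl1 value was 0.07. Derl2 was at 42.6 ± 0.964 and 44.3 ± 1.89 CPM and was not called (adjusted p = 0.323). Derl3, the form best known from secretory tissues, had the fewest counts of the set, 21, 40 and 34 counts in the control and 41, 36 and 16 counts in the sorafenib libraries, and no difference was detectable at that depth and spread (0.11 ± 0.40, adjusted p = 0.825).

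The 5 genes of translocation and signal peptide cleavage were also divided, with 2 higher, 2 lower and 1 not called. Ssr1, a subunit of the translocon-associated protein complex, was at 177, 184 and 173 CPM in the ctrl-Treg libraries, against 234, 252 and 238 CPM in the Sora-Treg libraries, without overlap (1.35-fold, 0.44 ± 0.03, adjusted p = 1.68e-10). Spcs1, an accessory subunit of signal peptidase, was at 44.7, 47.5 and 46.0 CPM and at 50.2, 53.6 and 52.9 CPM (0.18 ± 0.05, adjusted p = 0.00195), a call that was lost with library totals (0.07). The channel subunit Sec61a1 went the other way, at 212, 213 and 212 CPM without Sora and 199, 189.6 and 196 CPM with it (-0.13 ± 0.03, adjusted p = 0.00102). Sec11c, a catalytic subunit of signal peptidase, was at 38.1, 37.4 and 37.5 CPM and at 32.7, 32.8 and 33.7 CPM (-0.19 ± 0.05, adjusted p = 0.00318). Sec61b, another channel subunit, was at 44.5 ± 1.65 and 44.5 ± 1.11 CPM and was not called (adjusted p = 0.958). The signal peptidase subunits Spcs1 and Sec11c thus differed in sign. With library totals Sec61b was called lower at -0.12, and the 5 genes split into 1 higher and 3 lower. On that scaling 21.3% of all genes were higher and 41.7% lower.

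Summed over all 33 genes, the level was 7166, 7178 and 7229 CPM in the control and 7572, 7547 and 7632 CPM in the sorafenib libraries. The groups did not overlap, with means of 7191 ± 33.5 and 7584 ± 43.7 CPM and a difference of 393 CPM (two-sided exact permutation p = 0.1, the smallest that 3 against 3 libraries allow). P4hb alone set the sign: without it the other 32 genes summed to 6645 ± 34.998 and 6542 ± 42.3 CPM, a difference of -103 CPM. With library totals the sign of the full sum turned as well, since the genes took 0.748% of all counts in the control and 0.728% in the sorafenib libraries. By role, the chaperones summed to 2580 ± 29.2 and 2292 ± 25.1 CPM, while the lectins and disulfide isomerases summed to 3048 ± 8.87 and 3598 ± 32.9 CPM. Chaperones were thus lower, and they took 0.268% and 0.220% of raw counts. The gain of the other group was for the most part that of P4hb, since its remaining 5 genes summed to 2501 ± 9.98 and 2557 ± 19.4 CPM, and to 0.260% and 0.246% of raw counts, a fall on that scale. The sensors and transcription factors summed to 287 ± 3.25 and 377 ± 6.73 CPM. The degradation genes summed to 758 ± 9.50 and 750.4 ± 4.08 CPM and the translocation genes to 519 ± 8.45 and 566 ± 6.55 CPM. Here too a single gene carried each gain. Xbp1 alone went from 173 to 266 CPM among the sensors and transcription factors, and Ssr1 from 178 to 241 CPM among the translocation genes. The permutation p was 0.3 for the degradation genes and 0.1 for each other role.

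Compared per gene length, as FPKM (scaled by library totals), the genes spanned a wide range of levels. Calr stood highest at 477 ± 0.619 FPKM in the ctrl-Treg group, followed by Hspa5 at 440.4 ± 4.98 and Hsp90b1 at 302 ± 6.37 FPKM, and Derl3 lowest at 0.695 ± 0.244 FPKM. In the Sora-Treg libraries Calr was still highest at 473 ± 12.9 FPKM, but P4hb at 349.6 ± 7.97 FPKM and Hspa5 at 334 ± 7.0 FPKM came next to each other. P4hb had been at 199 ± 1.06 FPKM, below Pdia3 at 214 ± 2.64 FPKM, and so passed Pdia3, Hsp90b1 and Hspa5 in the order of levels. Xbp1, at 80.0 ± 0.438 FPKM without Sora and 114 ± 2.10 FPKM with it, had a level well above those of the sensors Atf6 (5.68 ± 0.103 FPKM without Sora) and Ern1 (2.86 ± 0.117 FPKM). Spread within groups was small, with a median coefficient of variation over the 33 genes of 1.94% in control and 2.49% in sorafenib libraries, and the largest values, 35.3% and 48.1%, were those of Derl3.

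**Figure D4:**
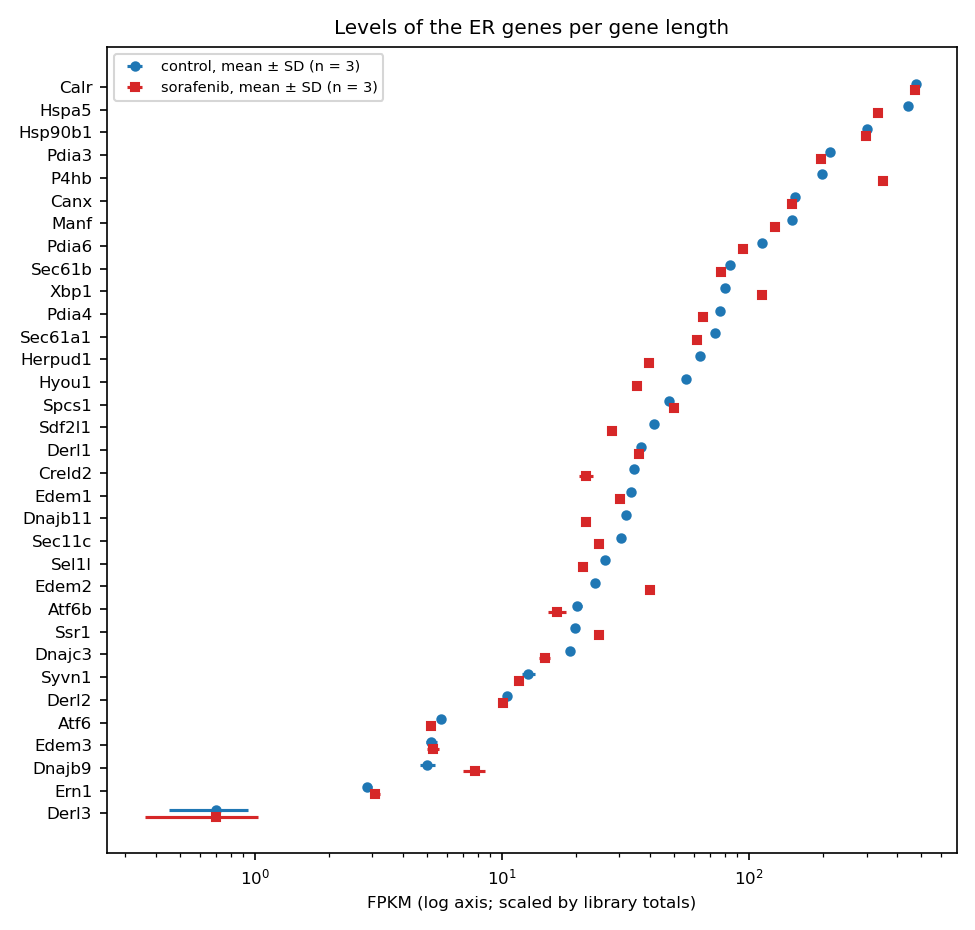
Level of each gene per gene length in FPKM (horizontal log axis), as mean ± SD of 3 control libraries (blue circles) and 3 sorafenib libraries (red squares), ordered by the control mean. P4hb moves from 199 to 349.6 FPKM, past Hspa5, which moves from 440.4 to 334 FPKM, and bars are wide only for Derl3.

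Of the 11 genes with an ERSE or ERSE-II, 3 were higher (Hsp90b1, Calr and Canx), 6 were lower and 2 were not called. Their median log2 fold change was -0.14, with a range of -0.58 to 0.11. Over all genes tested 29.7% were higher and 29.9% lower. The split of the 11 depended on the scaling: with library totals 0 were called higher and 7 lower, and 10 of the 11 had values below 0. On that scaling 21.3% of all genes were higher and 41.7% lower, with a median of -0.12. The 16 genes with a window but neither element held the 4 highest fold changes of the set (P4hb, Edem2, Dnajb9 and Xbp1), and 8 of them were higher, 4 lower and 4 not called, with a median of 0.10; with library totals 5 were higher and 7 lower, with a median of -0.02. For the 6 genes with no window in the table (Hyou1, Manf, Atf6, Derl1, Sec61a1 and Sec11c) the median was -0.12. These are descriptions, and the difference between the groups of genes was not tested.

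Further genes of the same pathways came from lists drawn up by function. Their counts stand beside 29.7% higher, 29.9% lower and 11.3% DEGs over all genes tested. The counts and medians of these lists are with TMM alone. They were not taken with library totals, which lowered the median of all genes to -0.12. Of 28 other ER folding and disulfide enzymes tested, 17 were higher and 5 lower (median 0.19). Ero1a, an oxidase that reoxidises protein disulfide isomerase, went from 605 ± 24.0 to 1591 ± 96.9 CPM (1.39 ± 0.03, adjusted p = 1.57e-19) and was a DEG. Sil1, an exchange factor for BiP, was also higher (0.59 ± 0.06). P4hb and Ero1a thus both rose, while Ero1b of the same list was not called (-0.20 ± 0.09, adjusted p = 0.0531). Pdia5 (-1.43 ± 0.25) and Uggt2 (-1.04 ± 0.37), the latter a folding sensor for glycoproteins, were lower DEGs at levels of about 1 to 3 CPM. Of 26 other degradation genes 13 were higher and 2 lower (median 0.09), with Os9, a lectin of the Hrd1 complex, and Ubxn6 higher at 0.65 ± 0.03 and 0.55 ± 0.05. The 2 that fell were Vcp, the ATPase that extracts substrates (-0.32 ± 0.03), and the ubiquitin-conjugating enzyme Ube2g2 (-0.29 ± 0.06).

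Of 31 other genes of translocation, signal peptidase and oligosaccharyltransferase, 12 were higher and 6 lower (38.7% and 19.4%, median 0.03), beside 29.7% and 29.9% of all genes. Dad1 (0.52 ± 0.04) and Spcs3 (0.47 ± 0.04) were the highest, and Ostc (-0.43 ± 0.05) and Rpn1 (-0.31 ± 0.03) the lowest, so that here too subunits of the same oligosaccharyltransferase, Dad1, Ostc and Rpn1, differed in sign. Of 20 other regulators of the response, 7 were higher and 7 lower (35% each, median -0.01), near the 29.7% and 29.9% of all genes. They included the ER-anchored factors Creb3l2 (0.78 ± 0.09) and Creb3l1 (-0.76 ± 0.14), the response modulator Crebrf (0.45 ± 0.05) and the apoptosis effector Bax (-0.34 ± 0.04).

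Most of the genes listed for the Perk arm and as Atf4 targets were lower, and the activity of Perk was not measured. Of 17 genes tested, 10 were lower and 4 higher (58.8% and 23.5%, median -0.26), beside 29.9% and 29.7% of all genes. Of the lower genes 3 were DEGs, where 11.3% of all genes were DEGs in either direction. Slc7a11, the cystine transporter, went from 3.2 ± 0.703 to 0.313 ± 0.102 CPM (-3.33 ± 0.32, adjusted p = 4.27e-09), and Chac1, which degrades glutathione, from 12.8 ± 0.756 to 4.75 ± 0.620 CPM (-1.43 ± 0.11, adjusted p = 1.73e-10). Vldlr, a lipoprotein receptor, at 0.97 ± 0.03, and the stress factor Atf3, at 0.40 ± 0.07, were higher. The following 3 genes were looked up after their values had been seen. Eif2ak3, which encodes Perk, was higher at 34.1 and 42.8 CPM in the group means (0.33 ± 0.05, adjusted p = 1.17e-05), Atf4 was lower at 443 and 412 CPM (-0.11 ± 0.03, adjusted p = 0.00203), and Ddit3, the stress factor Chop, was not called at 56.2 and 53.7 CPM (-0.07 ± 0.04, adjusted p = 0.214). The sensor gene Eif2ak3 was thus higher, like Ern1, while most of the list was lower.

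**Figure D5:**
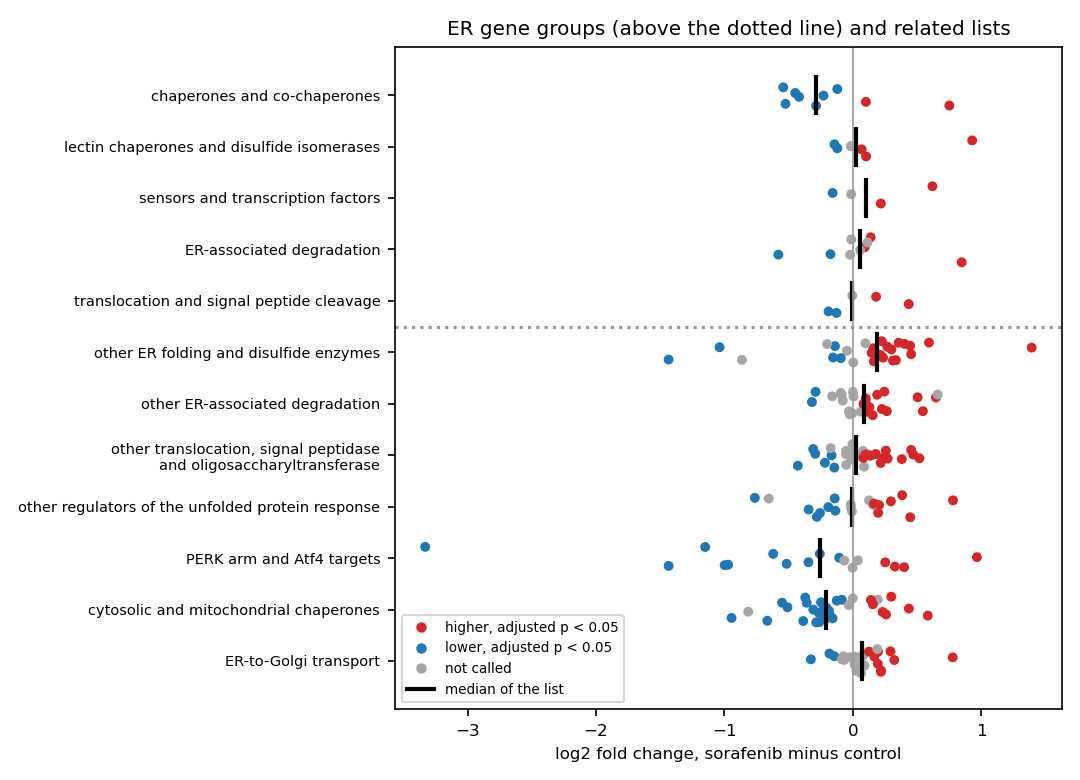
Log2 fold change, sorafenib minus control (horizontal axis), of each tested gene (point) in the 5 roles of the set, above the dotted line, and in the 7 related lists below it. Red and blue mark genes higher and lower at adjusted p under 0.05, grey genes not called, and black bars the medians, which run from -0.29 in the chaperones to 0.19 in the other ER folding and disulfide enzymes.

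Gene bodies of 12 of the 33 genes overlap another annotated gene in RefSeq, and the handling of strand and of shared reads is not given in the sources used here. Among the overlapping neighbours present in the table, Rabepk (Hspa5) reached at most 790 counts, Mrpl49 (Syvn1) 1171, Mis12 (Derl2) 1566 and Glt8d1 (Spcs1) 1127 counts in a library, and for these genes shared reads are uncertain.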

How the data were processed

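RNA-seq was done on 6 libraries, 3 control and 3 sorafenib, grouped by the sample titles. Raw counts for each gene symbol, as deposited by the authors, were used for all tests. The deposited FPKM values for the same genes equal the count divided by 1 length per gene and the library total (largest relative range of the implied length 1.64e-06 over 20237 genes) and are no separate measurement. The submitters' processing notes name fastp, HISAT2, HTSeq, R 3.2.0, DESeq2 and GRCm39, whereas the study's methods name Bowtie2 and GRCm38. The build of the counts is therefore unsettled, and genes were matched by symbol. Strand and annotation release are not given in the sources used here. FPKM scaled by library totals carries any shift in total RNA makeup that TMM removes.

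Counts were tested with edgeR 4.0.16 in R 4.3.3 (TMM, filterByExpr, glmQLFit and glmQLFTest, no covariate, Benjamini-Hochberg adjustment over 13463 genes). A gene was called at an adjusted p under 0.05, and a DEG also needed more than 2-fold, as in the study's methods. SE is the value that the F statistic implies. The common biological coefficient of variation was 4.29%. Counts of library pairs within a group differed by more than sampling noise (chi-square per degree of freedom 3.48 to 6.23), so no library was counted as a copy. Alternatives were DESeq2 1.42.0, limma 3.58.1 on log2(FPKM + 1) and log2(FPKM + 0.1), other scalings and filters, each library left out and a replicate block. Same-numbered libraries did not deviate together (correlations -0.04, 0.06 and 0.03), so the numbers were not taken as pairs.

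The members and lists were chosen with earlier results of these data known. All 33 members are described. Values in every library are given for Hspa5, the sensors and the 2 highest and 2 lowest fold changes of each role. Of each further list at most 4 genes are named, the 2 highest and 2 lowest called genes with a mean of at least 1 CPM. Eif2ak3, Atf4, Ddit3 and Ero1b are exceptions, added after their values had been seen. Promoter windows are from RefSeq (GRCm38.p6), matched by symbol for 27 of 33 members, 1 of which has 2 windows.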

Additional observations from a re-analysis of the deposited data

How the results depend on the processing

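The choice of scaling had the widest effect. With library totals the number of the 33 genes called higher was 5 and the median log2 fold change -0.127, and the difference in summed CPM turned to -197. With log2(FPKM + 1), log2(FPKM + 0.1) and log2(FPKM + 1) without a filter, which also scale by totals, 5 genes were higher and the medians were -0.122, -0.128 and -0.115. Upper quartile scaling gave a median of -0.0500 and a summed difference of 199.7 CPM, and keeping genes with a count in any sample gave a median of -0.0269. The median of all genes was -0.119 with library totals, -0.0413 with upper quartile scaling and 0.000498 with the last filter. Values that turned with library totals and with the same 3 FPKM settings, in that order, were -0.0111, -0.0115, -0.0115 and -0.0115 for Calr, -0.0458, -0.0456, -0.0459 and -0.0456 for Canx, -0.0213, -0.0207, -0.0212 and -0.0207 for Derl1, -0.0571, -0.0517, -0.0563 and -0.0517 for Derl2, and -0.0122, -0.0120, -0.0121 and -0.0120 for Hsp90b1. Derl3 was at -0.00745 with log2(FPKM + 1) without a filter. Sec61b was at 0.00107 with RLE scaling and at 0.000647 with a filter of 1 CPM in 3 samples.

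With each library left out in turn the values ran from -0.0357 to 0.0154 for Atf6, -0.188 to 0.473 for Derl3, -0.0330 to 0.0215 for Sec61b and -0.0534 to 0.0389 for Syvn1, none of which was called. With control libraries 1 and 2 both left out, chosen after seeing the data and with the lone control library assumed to vary like the others, 7 genes were higher, the median was -0.0300, and Derl3 (-0.135), Sec61b (0.0588) and Syvn1 (0.0789) changed sign. With a replicate block 12 genes were higher, 14 were lower and the median was -0.01, and every one of the 33 calls was the same. No group of 3 against 3 libraries can give an exact permutation p under 0.1, and at the depth of Derl3 a change below the spread of its libraries could not be seen.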

Other observations

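Chaperones outside the ER were lower more often than higher. Of 33 cytosolic and mitochondrial chaperones tested, 22 were lower, 7 were higher and 4 were not called (median log2 fold change -0.21), beside 29.9% lower over all genes. Hspd1, the mitochondrial Hsp60, went from 523 ± 4.89 to 272 ± 13.0 CPM (-0.94 ± 0.03, adjusted p = 2.04e-17), and Hsph1, an exchange factor for cytosolic Hsp70, went from 226 ± 7.56 to 142 ± 3.43 CPM (-0.67 ± 0.03, adjusted p = 5.40e-14). Dnajb4 (0.58 ± 0.09, adjusted p = 4.01e-06) and Hspa4l (0.44 ± 0.05, adjusted p = 1.99e-08) were higher.

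Of 28 genes of ER-to-Golgi transport, 10 were higher, 3 were lower and 15 were not called (median 0.08), beside 29.7% higher and 29.9% lower over all genes. Both these lists, too, were summarised with TMM alone. The KDEL receptors, which return ER chaperones from the Golgi, had the 2 highest called values, Kdelr3 at 1.34 ± 0.442 and 2.27 ± 0.293 CPM (0.78 ± 0.27, adjusted p = 0.0152) and Kdelr1 at 88.5 ± 1.002 and 111 ± 2.16 CPM (0.32 ± 0.04, adjusted p = 5.15e-08). The coat protein gene Sec13 (-0.33 ± 0.04, adjusted p = 1.23e-06) and Lman1, a cargo receptor for glycoproteins (-0.18 ± 0.04, adjusted p = 4.78e-04), were lower.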
